A study of Mus musculus with 24 samples.

Results

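Eosinophils find their way out of the bone marrow and into tissue with chemoattractant receptors, and 10 genes of such receptors were followed here through cultured mouse eosinophils. They were taken from the count tables by gene symbol, 10 of 25746 genes listed, and all 10 were among the 11885 genes with enough counts to be tested. The 10 genes were the chemokine receptors Ccr1, Ccr3, Cxcr2 and Cxcr4, the complement receptors C3ar1 and C5ar1, the formyl peptide receptors Fpr1 and Fpr2, and the lipid mediator receptors Ptafr and Ltb4r1.

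All of them encode membrane-spanning receptors that signal through G proteins, chiefly of the Gi class, to turn and move a leukocyte along a gradient of its ligand. CCR3 binds the eotaxins and is the receptor best known for bringing eosinophils into tissue, while CXCR4 holds leukocytes in the bone marrow through its ligand CXCL12. CCR1 answers chemokines such as CCL3, and CXCR2 answers the neutrophil attractants CXCL1 and CXCL2. C3AR1 and C5AR1 bind the complement fragments C3a and C5a, FPR1 and FPR2 bind formylated bacterial and mitochondrial peptides, PTAFR binds platelet-activating factor, and LTB4R1 binds leukotriene B4.

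Eosinophils of C57BL/6 mice were grown from bone marrow with stem cell factor and FLT3 ligand until day 4 and with interleukin-5 (IL-5) at 10 ng/ml after that. On day 13 live cells were kept overnight in IL-5, with or without GM-CSF, the granulocyte-macrophage colony-stimulating factor, at 20 ng/ml, and all 8 groups had 3 libraries. Csf2ra-/- cells, which by their label lack the receptor chain that binds GM-CSF itself, were given GM-CSF or left untreated, and so were cells labelled Irf5-/-, after a transcription factor of innate immune cells. Wild-type cells were given GM-CSF with interleukin-10 (IL-10), GM-CSF, IL-10 or neither, and the labels give no IL-10 dose. All groups shared the strain, the growth factors and the overnight IL-5, and the labels name neither the alleles nor the age of the mice. They speak of triplicates and not of separate animals, so p-values measure only the spread between these libraries, which may be technical in part.

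Library totals ran from 6222979 to 18709153 counts. The granule genes Prg2 and Epx, which define eosinophils, averaged 44700 and 16000 CPM, which are counts scaled to library size. Csf2ra stood at 28.5 to 39.8 CPM in the 6 Csf2ra-/- libraries, against 41.8 to 83.8 CPM in the other 18. Irf5 went against its label: the 6 libraries labelled Irf5-/- had 1394 to 1999 CPM, against 28.3 to 94.3 CPM in the other 18, so these are called by their label only. In 14 libraries the sum of 4 Y-linked genes was 148 to 185 CPM and in the other 10 it was 12.1 to 60.9 CPM. All 6 Csf2ra-/- libraries were among the 14, against 6 of the 12 wild-type libraries, and every wild-type group and both groups labelled Irf5-/- held libraries of either kind, so the libraries of such a group were not repeats of the same RNA. On the first 2 principal components 5 libraries were judged, after the data were seen, to lie apart from the rest of their group. These were replicate 3 of both Csf2ra-/- groups, in wild type replicate 2 of GM-CSF and replicate 3 of both cytokines, and in cells labelled Irf5-/- replicate 1 of GM-CSF. Untreated replicate 1 labelled Irf5-/- also stood off its group, at 24.4 on the first component against 6.2 and 7, but was not counted among the 5. The fits were repeated without the first 4 and without all 5. In bulk RNA, fewer cells that carry a transcript and less of it per cell cannot be told apart.

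On GRCm38 the C5ar1 gene (ENSMUSG00000049130) lies at chr7:16246743-16259540 on the minus strand and Fpr1 (ENSMUSG00000045551) at chr17:17876471-17883940 on the minus strand, next to Fpr2 (ENSMUSG00000052270, chr17:17887824-17893952, plus strand). Ccr3 (ENSMUSG00000035448) lies at chr9:124021972-124031689 on the plus strand, near Ccr1 (ENSMUSG00000025804, chr9:123962124-123968692, minus strand). Cxcr2 (ENSMUSG00000026180) lies at chr1:74153989-74161246 on the plus strand and Cxcr4 (ENSMUSG00000045382) at chr1:128588199-128592293 on the minus strand. C3ar1 (ENSMUSG00000040552) lies at chr6:122847138-122856161 on the minus strand, Ptafr (ENSMUSG00000056529) at chr4:132564067-132582683 and Ltb4r1 (ENSMUSG00000046908) at chr14:55765962-55768494, both on the plus strand.

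The 250 bases before the RefSeq start of each receptor gene were read for 3 short motifs, since members that differ together between groups may be compared for what their promoters hold. The motifs were TTCNNNGAA, the core bound by STAT factors, AGATAA, bound by GATA factors, and GAGGAA, bound by ETS factors of the PU.1 kind. Both strands were searched and no match of one motif overlapped another. All 10 genes had an entry in the RefSeq table of GRCm38.p6. The windows of the 4 genes that passed a test below are printed 5′ to 3′ on the gene's strand, with matches in capitals.
Cxcr2: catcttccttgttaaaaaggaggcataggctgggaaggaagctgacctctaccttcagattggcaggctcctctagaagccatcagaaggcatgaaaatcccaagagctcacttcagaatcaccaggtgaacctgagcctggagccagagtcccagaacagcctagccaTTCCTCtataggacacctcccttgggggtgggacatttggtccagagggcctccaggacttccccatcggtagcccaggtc
Ccr3: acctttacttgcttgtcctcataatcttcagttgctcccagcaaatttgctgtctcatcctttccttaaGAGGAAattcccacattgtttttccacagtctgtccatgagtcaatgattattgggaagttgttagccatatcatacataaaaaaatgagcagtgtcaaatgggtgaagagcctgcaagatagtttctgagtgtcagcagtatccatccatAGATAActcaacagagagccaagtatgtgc
C5ar1: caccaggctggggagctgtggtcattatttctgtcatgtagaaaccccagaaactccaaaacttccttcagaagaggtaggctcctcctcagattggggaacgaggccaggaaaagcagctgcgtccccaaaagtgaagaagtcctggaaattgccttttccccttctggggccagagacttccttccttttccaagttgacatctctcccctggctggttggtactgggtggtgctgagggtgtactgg
Fpr1: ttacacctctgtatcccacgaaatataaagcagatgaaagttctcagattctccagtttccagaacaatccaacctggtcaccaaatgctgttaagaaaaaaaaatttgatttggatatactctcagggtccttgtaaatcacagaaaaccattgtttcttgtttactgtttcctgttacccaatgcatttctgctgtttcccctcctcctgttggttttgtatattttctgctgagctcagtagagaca

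The Cxcr2 window lies at chr1:74153744-74153993 on the plus strand and the Ccr3 window at chr9:124021721-124021970 on the plus strand. Those of C5ar1 and Fpr1 lie on the minus strand at chr7:16259339-16259588 and chr17:17883940-17884189. The C5ar1 window holds 28 bases of the first exon of another annotated transcript of that gene. Cxcr2 had 1 GAGGAA match, read on the opposite strand as TTCCTC, whose first base lay 81 bases before the start. Ccr3 had 1 GAGGAA match at 181 bases and 1 AGATAA match at 30 bases before the start. C5ar1 and Fpr1 had 0 matches of any of the 3 motifs. Among the 10 receptor genes, 6 had GAGGAA, 3 had AGATAA and 1, Fpr2, had TTCNNNGAA. Of all 32851 windows of the same length, 23.3% held GAGGAA, 9.99% AGATAA and 7.02% TTCNNNGAA. These matches describe letters and not binding.

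Per length of transcript, the receptors fell into 3 tiers. Cxcr4 was highest in every group, with a mean of 331 RPKM (CPM per kilobase of exon) over the 24 libraries and a range of 275 to 389 RPKM. Ltb4r1 at 134 RPKM, Ccr1 at 113 RPKM and Ccr3 at 84.4 RPKM followed. Cxcr2, Ptafr and C3ar1 made the middle tier at 28.0, 24.5 and 20.0 RPKM. Fpr1, Fpr2 and C5ar1 were low, at 2.35, 2.18 and 1.78 RPKM, and had as few as 14, 8 and 22 counts in a library, so their values carry more counting error than those of the other 7 genes. Exons of Fpr2 share 48 bases with those of its neighbour Fpr3 on the same strand, and aligned stretches of the Fpr2 and Fpr3 transcripts are 87.4% identical. The sources used here do not give how such reads were counted, and Fpr2 values are uncertain. The exons of the other 9 receptors overlap those of no other gene.

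**Figure D1:**
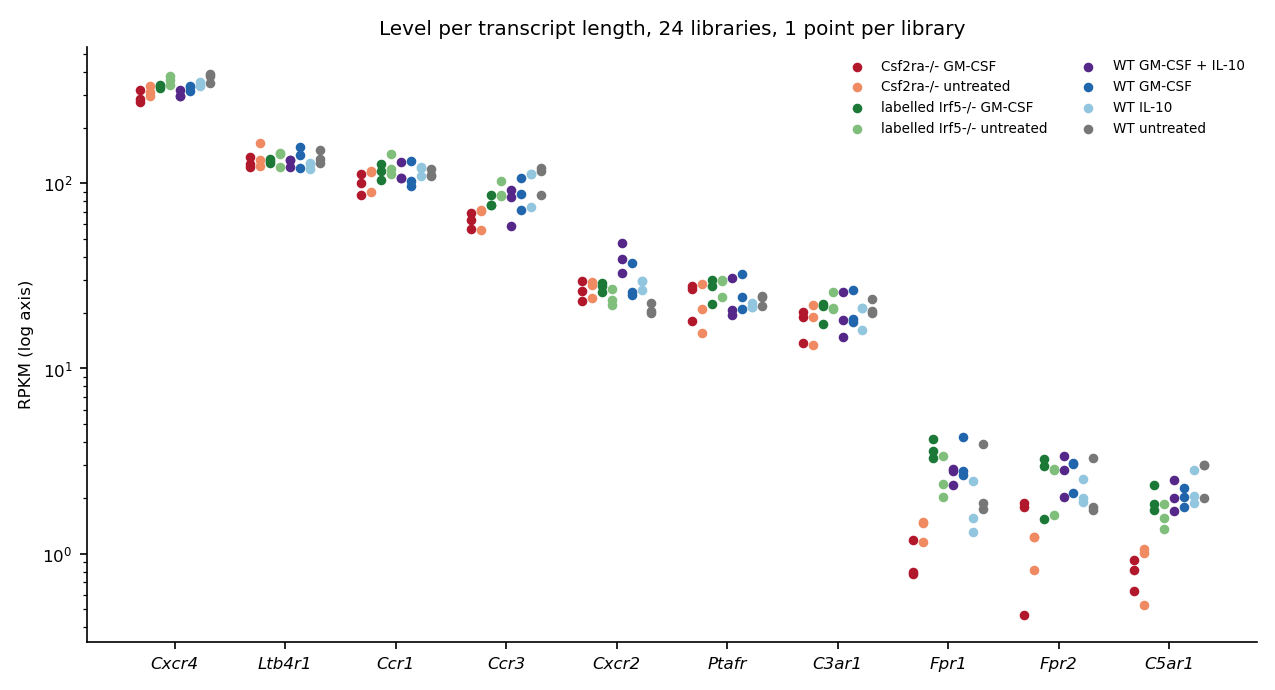
Level of each receptor transcript per length (RPKM, log axis), 1 point per library, coloured by group, genes ordered by their mean. Cxcr4 lies at 275 to 389 RPKM, and Fpr1, Fpr2 and C5ar1 lie below 5 RPKM in every library.

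Among 35 other chemoattractant receptor genes, 17 passed the filter. The highest per length were S1pr4, a sphingosine 1-phosphate receptor, at 67.7 RPKM, and P2ry14, a receptor for UDP-sugars, at 17.1 RPKM. Ccrl2, an atypical receptor for chemerin, and C5ar2, an alternative C5a receptor, followed at 4.70 and 4.68 RPKM. S1pr4 thus stood below Ccr3, and C5ar2 stood above C5ar1 per length in these cultures.

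The comparison of Csf2ra-/- with wild-type cells asked what the GM-CSF receptor chain contributes to the receptor profile, without and with added GM-CSF. C5ar1 was lower in Csf2ra-/- cells under both conditions, Ccr3 was lower in untreated cells and Fpr1 was lower with GM-CSF. These were the members called, 2 of 10 in each condition, all lower, at a Benjamini-Hochberg adjusted p under 0.05 over all tested genes by edgeR's quasi-likelihood test. The share of all tested genes called lower was 5.32% untreated and 2.89% with GM-CSF, and the share called in either direction was 10.8% and 3.79%. These shares depend on single libraries. The 1288 genes called untreated were 291 without wild-type replicate 2 and 2620 without Csf2ra-/- replicate 2, and the 451 with GM-CSF were 222 without Csf2ra-/- replicate 2. A count of 2 of 10 is therefore given for the genes themselves and not as a property of the set. The median log2 fold change of the 10 members was -0.24 untreated, against 0.003 for all tested genes, and -0.20 with GM-CSF, against -0.003.

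C5ar1, the C5a receptor, had 2.71, 2.59 and 1.36 CPM in untreated Csf2ra-/- libraries, against 5.16, 7.75 and 7.78 CPM in untreated wild-type libraries. With GM-CSF it had 2.38, 2.11 and 1.63 CPM in Csf2ra-/- libraries, against 5.20, 4.61 and 5.79 CPM in wild-type libraries. Every Csf2ra-/- library was below every wild-type library, and replicate 3 was the lowest of each Csf2ra-/- group. The log2 fold change was -1.66 ± 0.26 (SE) untreated (adjusted p = 0.000471), with a 95% interval of -2.19 to -1.13. With GM-CSF it was -1.33 ± 0.25 (adjusted p = 0.00243). Both calls held in all 15 alternatives each, with adjusted p-values of 1.17e-06 to 0.0286 untreated and 0.000197 to 0.0205 with GM-CSF. The wild-type libraries with a high Y-linked sum, untreated replicate 1 at 5.16 CPM and GM-CSF replicates 1 and 2 at 5.20 and 4.61 CPM, were also above every Csf2ra-/- library.

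Fpr1, a receptor for formylated peptides, had 1.57, 1.05 and 1.03 CPM in Csf2ra-/- libraries with GM-CSF, against 5.66, 3.51 and 3.69 CPM in wild-type libraries with GM-CSF. The lowest wild-type library was above the highest Csf2ra-/- library. The log2 fold change was -1.79 ± 0.31 (adjusted p = 0.00111), and the call held in all 15 alternatives (adjusted p of 4.48e-05 to 0.0205). In untreated cells Fpr1 had 1.97, 1.94 and 1.54 CPM in Csf2ra-/- libraries, against 5.16, 2.50 and 2.32 CPM in wild-type libraries. Here too the groups did not overlap, but 1 wild-type library was well above the others, and the value of -0.90 ± 0.31 missed the threshold (adjusted p = 0.0661). That library, replicate 1, also had the only high Y-linked sum of its group, and the value was -0.41 without it (adjusted p = 0.390) and -1.07 with the level of the Y-linked genes in the fit (adjusted p = 0.0257).

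Fpr2, the receptor for a wider range of peptides and lipids, had 1.60, 1.06 and 1.60 CPM in untreated Csf2ra-/- libraries, against 4.25, 2.24 and 2.32 CPM in untreated wild-type libraries. With GM-CSF it had 2.32, 0.602 and 2.44 CPM in Csf2ra-/- libraries, against 4.00, 3.95 and 2.75 CPM in wild-type libraries. Neither pair of groups overlapped, yet neither passed, at -1.08 ± 0.40 (adjusted p = 0.0853) and -0.98 ± 0.38 (adjusted p = 0.197). The untreated value passed in 1 of 15 alternatives, the fit with the Y-linked genes (-1.32, adjusted p = 0.0328), and was -0.70 without wild-type replicate 1 (adjusted p = 0.305), again the highest of its group.

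Ccr3, the eotaxin receptor, had 231, 236 and 182 CPM in untreated Csf2ra-/- libraries, against 285, 396 and 379.8 CPM in untreated wild-type libraries. All 3 Csf2ra-/- libraries were below the lowest wild-type library. The log2 fold change was -0.71 ± 0.18 (adjusted p = 0.0175). This call was the weakest of the set and held in 10 of 15 alternatives. It was lost with only the 2 groups in the fit (adjusted p = 0.0911), and without Csf2ra-/- replicate 1 (0.0615) or 3 (0.0516) or wild-type replicate 2 (0.105) or 3 (0.0747). With GM-CSF Ccr3 had 226, 207 and 184 CPM in Csf2ra-/- libraries, against 234, 352 and 285 CPM in wild-type libraries. The groups again did not overlap, though narrowly, and -0.49 ± 0.18 was not called (adjusted p = 0.17). The lowest wild-type library of each condition, untreated and GM-CSF replicate 1, had a high Y-linked sum. So had the highest wild-type library with GM-CSF, replicate 2 at 352 CPM. In the fit with the Y-linked genes the untreated value was -0.67 (adjusted p = 0.0397).

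Cxcr4, the CXCL12 receptor, had 563, 532 and 608 CPM in untreated Csf2ra-/- libraries, against 626, 690.3 and 703 CPM in untreated wild-type libraries. The groups did not overlap, and the small difference of -0.25 ± 0.08 missed the threshold (adjusted p = 0.0510), which it passed in 5 of 15 alternatives: DESeq2 (0.00848), without Csf2ra-/- replicate 3 (0.0352), without wild-type replicate 1 (0.0371) and without 4 (0.0209) or 5 (0.0230) of the libraries that lay apart. With GM-CSF the groups overlapped and the value was -0.16 ± 0.08 (adjusted p = 0.391). Cxcr2 was the only member above wild type without overlap, with 86.2, 89.4 and 73.5 CPM in untreated Csf2ra-/- libraries, against 60.6, 62.2 and 69.0 CPM in untreated wild-type libraries. Its value of 0.38 ± 0.15 was not called (adjusted p = 0.0947), except without 4 or 5 of the libraries that lay apart (0.47 in both, adjusted p = 0.00625 and 0.00616).

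In all, 5 of 10 members were lower without overlap in untreated Csf2ra-/- cells, where 10.9% of all tested genes were, and 1 was higher, where 10.3% were. With GM-CSF 4 of 10 were lower without overlap, where 10.1% of all genes were. The other 4 receptors, Ccr1, C3ar1, Ptafr and Ltb4r1, overlapped wild type in both conditions and lay between -0.25 and 0.02 on the log2 scale. Intervals were narrowest for Ltb4r1, at -0.20 to 0.25 untreated and -0.34 to 0.12 with GM-CSF, and for C3ar1 they reached -0.67 untreated and -0.67 with GM-CSF, so differences of that size in C3ar1 are within the error.

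**Figure D2:**
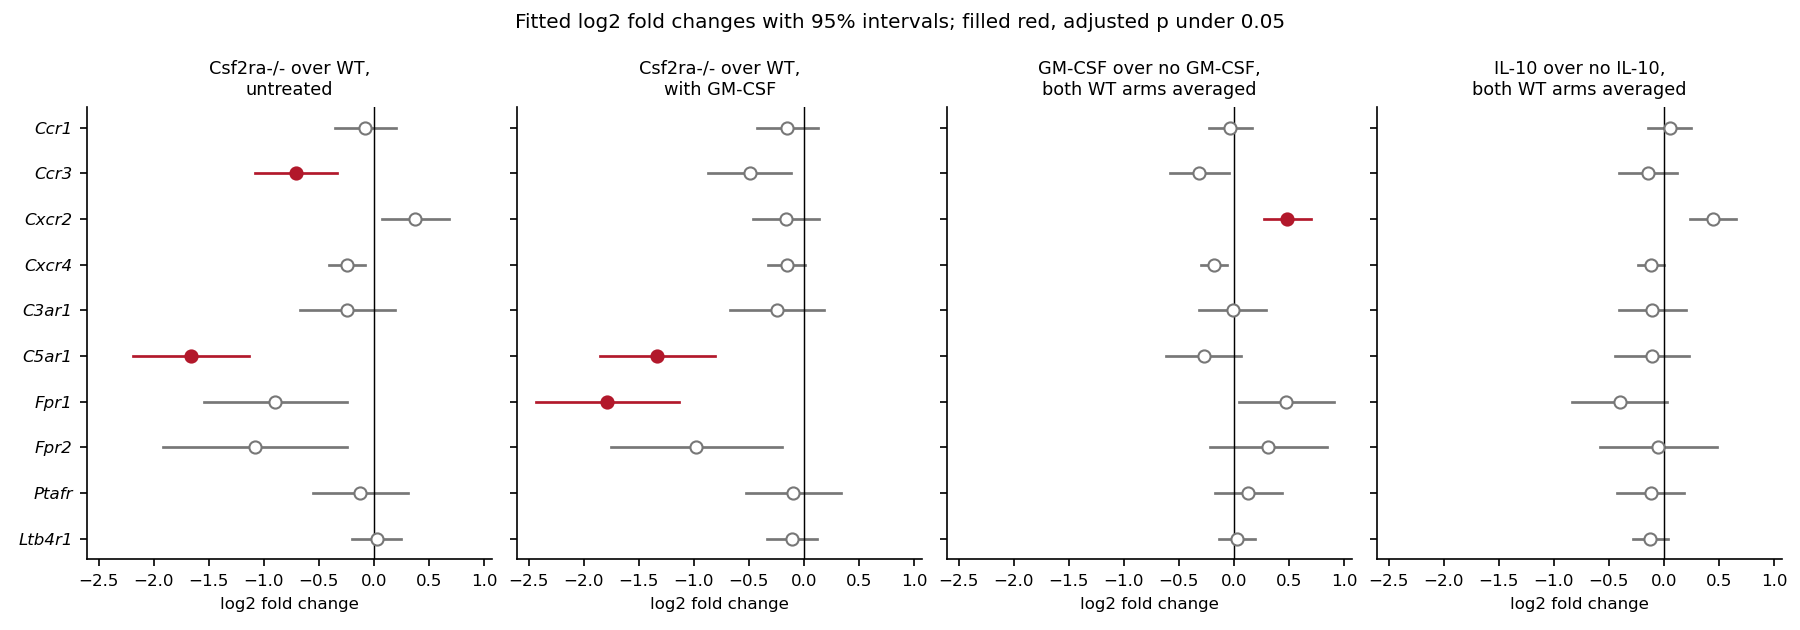
Fitted log2 fold change of each receptor (points) with its 95% interval (lines) for Csf2ra-/- over wild type, untreated and with GM-CSF. The last panels show GM-CSF over no GM-CSF and IL-10 over no IL-10, each averaged over both wild-type arms. Filled red points passed an adjusted p of 0.05: Ccr3 and C5ar1 in the first panel, C5ar1 and Fpr1 in the second, Cxcr2 in the third and 0 in the fourth.

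Markers of other leukocytes moved in the same comparisons. The summed level of 10 neutrophil markers was 1247 to 1567 CPM in untreated Csf2ra-/- libraries, against 1642 to 1917 CPM in wild type, and 1206 to 1251 CPM in Csf2ra-/- libraries with GM-CSF, against 1636 to 1913 CPM in wild type with GM-CSF. In each condition 4 of the 10 were called lower, where 5.32% of all genes were untreated and 2.89% with GM-CSF. They were Ltf, S100a9 and Mmp9 in both, Camp untreated and S100a8 with GM-CSF. Ly6g, Mpo and Ngp were not called, and Elane had at most 1.16 CPM and was at 0 in 1 of the 24 libraries. Of 14 monocyte and macrophage markers, 9 were lower in untreated Csf2ra-/- cells and 3 with GM-CSF, and their sums were 2184 to 2774 CPM in untreated Csf2ra-/- libraries, against 2646 to 2713 CPM in wild type, and 2099 to 2429 CPM in Csf2ra-/- libraries with GM-CSF, against 2388 to 2723 CPM in wild type with GM-CSF. Of these C1qa was at 0 in 6 libraries, Mertk in 4, and Cx3cr1 and C1qc in 1 each. Most of each monocyte and macrophage sum came from Ly6c2 and Adgre1, which averaged 1321 and 809.9 CPM over the 24 libraries. Of 4 dendritic cell markers tested, Zbtb46 was lower in both conditions and Siglech untreated (-1.06 ± 0.32). Of 2 lymphocyte markers tested Nkg7 was higher in both. In untreated Csf2ra-/- cells Cpa3, 1 of 5 mast cell and basophil markers tested, was higher (0.62 ± 0.16), as was Hbb-bs, the 1 erythroid marker tested (2.09 ± 0.52). Hbb-bs and Zbtb46 were very low, averaging 0.66 and 0.79 CPM over the 24 libraries, and Zbtb46 was at 0 in 2 of them. Monocytes and neutrophils are known to carry C5ar1, Fpr1 and Fpr2, and the part of these markers in the 3 receptors' lower levels was not tested. The eosinophil sum was 79350 to 107700 CPM in untreated Csf2ra-/- libraries, against 71470 to 76500 CPM in wild type, and of its 8 markers only Epx was called, higher.

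The GM-CSF comparison in wild-type cells asked how overnight GM-CSF on top of IL-5 changes the receptors. Cxcr2 was higher with GM-CSF when both arms, with and without IL-10, were averaged. It was the only receptor called there by edgeR, 1 of 10, where 2.54% of all tested genes were called in either direction and 1.86% higher. Within a single arm edgeR, DESeq2 and limma-voom called 0 of 10 receptors. Of all genes edgeR called 0.555% for GM-CSF alone and 0.858% with IL-10. At an unadjusted p under 0.05 stood 2 of 10 receptors in each arm, Cxcr2 and Cxcr4. Of all 11885 genes 745 stood there for GM-CSF alone and 1144 with IL-10.

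Cxcr2, the receptor for CXCL1 and CXCL2, had 100.1, 119 and 146 CPM with GM-CSF and IL-10, against 90.1, 90.9 and 80.4 CPM with IL-10. Without IL-10 it had 76.4, 113 and 79.2 CPM with GM-CSF, against 60.6, 62.2 and 69.0 CPM untreated. Within each arm every GM-CSF library was above every library without it, although the 2 arms pooled overlapped, since 2 of the GM-CSF libraries without IL-10 lay below all of those with IL-10 alone. The averaged log2 fold change was 0.49 ± 0.10 (adjusted p = 0.00807), a 1.40-fold difference, with an interval of 0.27 to 0.70. The single arms gave 0.49 ± 0.14 (adjusted p = 0.217) and, with IL-10, 0.48 ± 0.14 (adjusted p = 0.162).

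The Cxcr2 call held in all 21 alternatives, at 0.31 to 0.55. The lowest values, 0.31 in both, came without 4 (adjusted p = 0.0369) or 5 (0.0380) of the libraries that lay apart, which include the highest Cxcr2 library of each wild-type GM-CSF group. In the fit with the Y-linked genes it was 0.48 (adjusted p = 0.0154). Among libraries of high Y-linked sum Cxcr2 averaged 94.8 CPM with GM-CSF (2 libraries), against 60.6 CPM untreated (1 library), and 123 CPM with both cytokines (2 libraries), against 80.4 CPM with IL-10 (1 library). Among those of low sum it was 79.2 CPM with GM-CSF (1 library), against 65.6 CPM untreated (2 libraries), and 119 CPM with both (1 library), against 90.5 CPM with IL-10 (2 libraries). Each of these pairs has 1 library on one side and gives no test. Of the 10 neutrophil markers 0 were called with GM-CSF in either arm, and their sums were 1678 to 1794 CPM with both cytokines, against 1713 to 2097 CPM with IL-10, and 1636 to 1913 CPM with GM-CSF, against 1642 to 1917 CPM untreated. In the averaged effect, where 2.54% of all genes were called, 3 of 14 monocyte and macrophage markers were lower, with Cx3cr1 and Lyz2 among them, and 1 of 4 dendritic cell markers was higher, Zbtb46, and their part in the Cxcr2 level was not tested.

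Cxcr4 was slightly lower with GM-CSF in both arms and was not called. Its libraries had 533, 576 and 536 CPM with both cytokines, against 608, 635 and 615 CPM with IL-10 alone. Without IL-10 they had 568, 608 and 599 CPM with GM-CSF, against 626, 690.3 and 703 CPM untreated. The groups did not overlap in either arm nor when pooled, where 1.04% of all genes were lower without overlap, and the averaged value was -0.18 ± 0.06 (adjusted p = 0.0947), called by DESeq2 alone (adjusted p = 0.00934). Without overlap stood 1 of 10 receptors higher and 1 of 10 lower in each arm, where 6.9% and 5.92% of all genes did without IL-10 and 9.24% and 8.05% with it.

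Ccr3 averaged 256 ± 57.2 CPM with both cytokines, against 325 ± 71.6 CPM with IL-10 alone, and 290.0 ± 59.1 CPM with GM-CSF, against 353 ± 60.2 CPM untreated (SD, n = 3 each). The groups overlapped, and the averaged value of -0.31 ± 0.13 was not called (adjusted p = 0.221). Fpr1 averaged 3.53 ± 0.354 CPM with both cytokines, against 2.36 ± 0.806 CPM with IL-10, and 4.29 ± 1.19 CPM with GM-CSF, against 3.33 ± 1.59 CPM untreated. Its averaged value was 0.48 ± 0.21 (adjusted p = 0.257), and without untreated replicate 1, the high library named above, it was 0.72 (adjusted p = 0.0427). C5ar1 had an averaged value of -0.28 ± 0.16 and Fpr2 of 0.31 ± 0.26. Ccr1, C3ar1, Ptafr and Ltb4r1 lay between -0.04 and 0.13, with the narrowest 95% interval for Ltb4r1, -0.13 to 0.19.

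**Figure D3:**
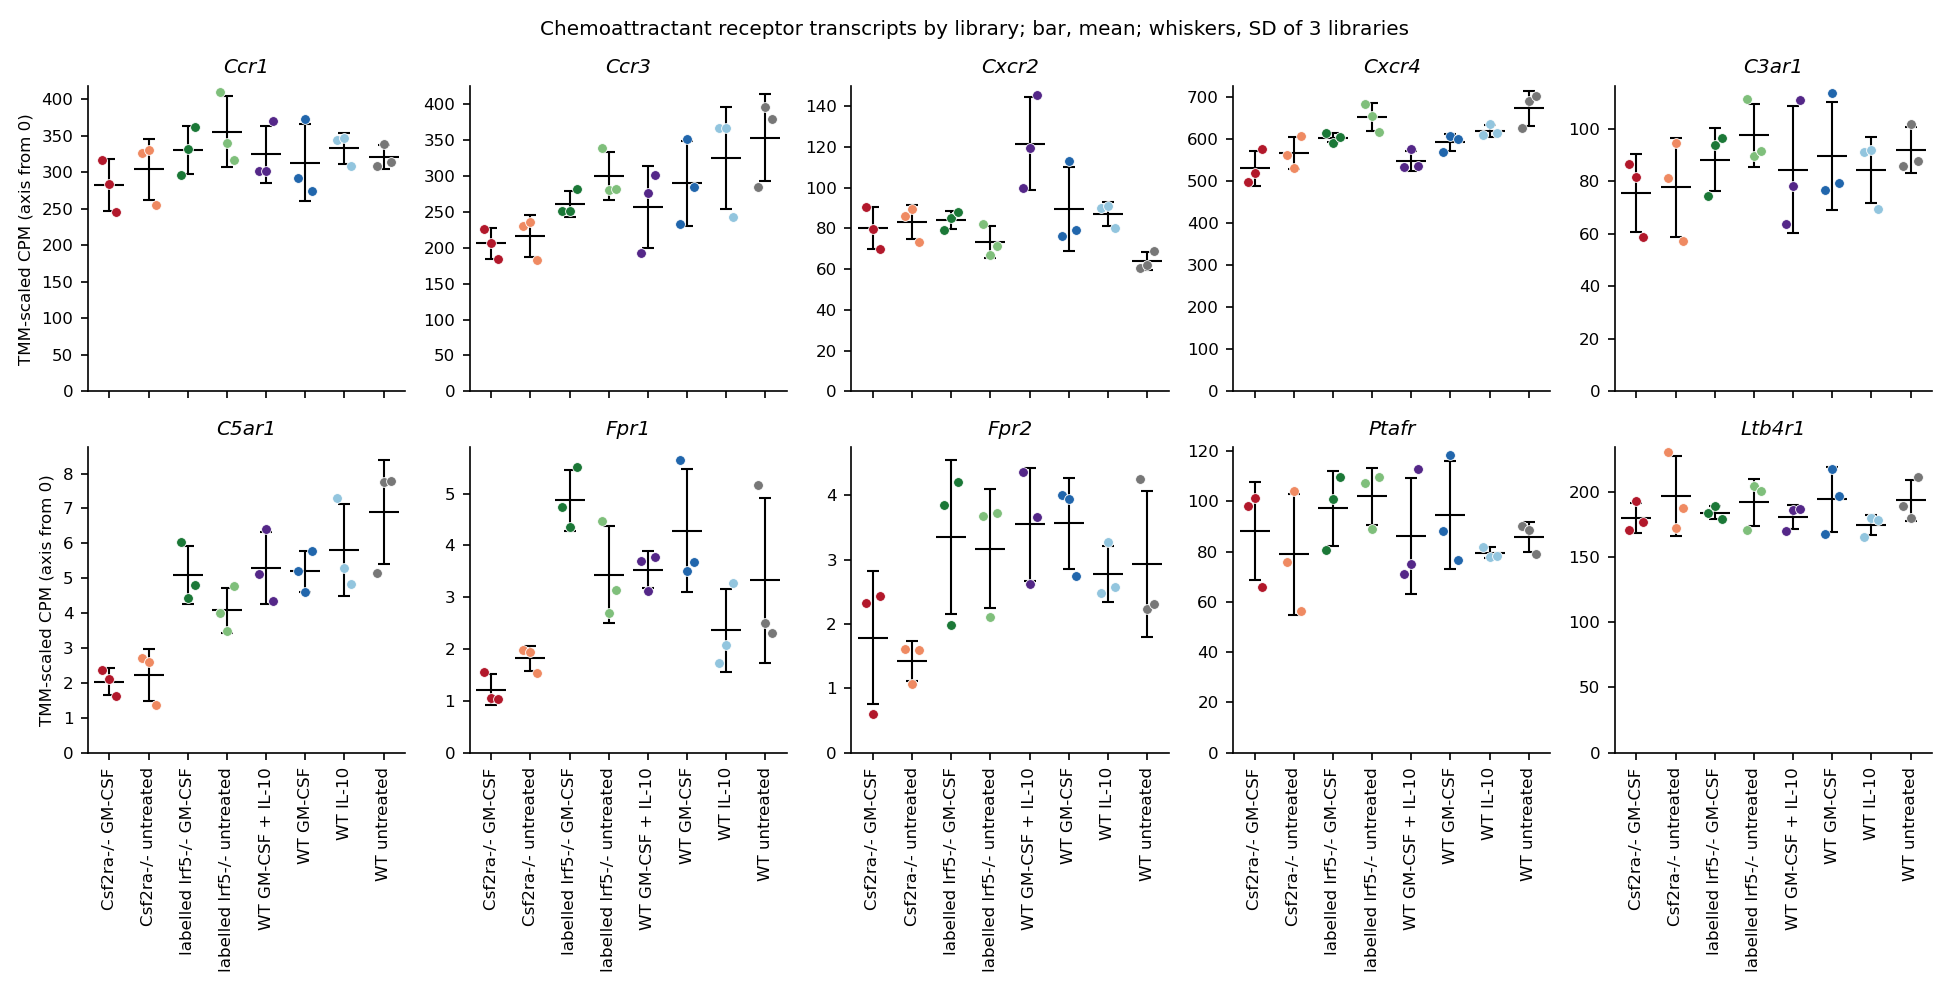
TMM-scaled CPM of each receptor in every library (points) with the mean and SD of 3 libraries (bar and whiskers), axes from 0, knockout groups left of wild type and treated groups left of untreated. Cxcr2 is highest with both cytokines at 100.1 to 146 CPM and lowest in untreated wild type at 60.6 to 69.0 CPM, and C5ar1 lies below 3 CPM in the Csf2ra-/- libraries and above 3 CPM elsewhere.

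The IL-10 comparison asked what IL-10 changes without and with GM-CSF. edgeR, DESeq2 and limma-voom called 0 of 10 receptors in either single arm, where edgeR called 0.0505% of all genes in each. In each arm 1 of 10, Cxcr2, had an unadjusted p under 0.05. So had 539 of all 11885 genes without GM-CSF and 382 with it. Averaged over both arms edgeR called 0 of 10, where it called 0.345% of all genes, DESeq2 1 and limma-voom 0. Cxcr2 came closest. It had 90.1, 90.9 and 80.4 CPM with IL-10, against 60.6, 62.2 and 69.0 CPM untreated, and the groups did not overlap, as for 7.34% of all genes in the higher direction. With GM-CSF present it had 100.1, 119 and 146 CPM with IL-10, against 76.4, 113 and 79.2 CPM without, and the groups overlapped through 1 GM-CSF library. The values were 0.45 ± 0.14 (adjusted p = 0.696) and 0.44 ± 0.14 (adjusted p = 0.765), and averaged 0.44 ± 0.10 (adjusted p = 0.0616).

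The Cxcr2 value for IL-10 without GM-CSF was past the threshold in 1 of 13 alternatives, with no other groups in the fit (adjusted p = 0.0451). The averaged value was past the threshold in 5 of 21 alternatives, which were DESeq2 (adjusted p = 0.00904), without GM-CSF with IL-10 replicate 1 (0.0227), without GM-CSF replicate 2 (0.00841) and without 4 (0.00393) or 5 (0.00412) of the libraries that lay apart. The fitted difference of the GM-CSF effect with and without IL-10 was -0.00 ± 0.20 for Cxcr2, with an interval of -0.42 to 0.42. The other 9 receptors lay between -0.40, for Fpr1, and 0.05, for Ccr1, in the averaged IL-10 effect.

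In Csf2ra-/- cells GM-CSF changed 0 of 10 receptors by edgeR, DESeq2 or limma-voom, and the share of all genes called was 0%. At an unadjusted p under 0.05 stood 0 of 10 receptors and 531 of all 11885 genes. Cxcr2 had 90.5, 79.7 and 70.1 CPM with GM-CSF, against 86.2, 89.4 and 73.5 CPM untreated. The libraries of both groups were mixed in order, and the value was -0.05 ± 0.14. The difference of this effect from that in wild type was -0.54 ± 0.20 for Cxcr2 (unadjusted p = 0.0152), which did not pass over all genes (adjusted p = 0.836). It was -0.89 ± 0.45 for Fpr1 (adjusted p = 0.843). edgeR, DESeq2 and limma-voom called 0 of 10 receptors in this difference, where edgeR called 0.0589% of all genes. An unadjusted p under 0.05 was found for 1 of 10, Cxcr2, and for 692 of all 11885 genes. Differences between the genotypes' responses are therefore not shown for any receptor.

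In cells labelled Irf5-/- GM-CSF changed 0 of 10 receptors by edgeR, DESeq2 or limma-voom, where 0.353% of all genes were called. At an unadjusted p under 0.05 stood 0 of 10 receptors and 692 of all 11885 genes. Cxcr2 had 79.3, 85.2 and 88.2 CPM with GM-CSF, against 82.1, 66.9 and 71.4 CPM untreated, at 0.20 ± 0.15. The groups overlapped through 1 untreated library. Fpr1 had 4.74, 4.37 and 5.52 CPM with GM-CSF, against 4.48, 2.69 and 3.14 CPM untreated, at 0.55 ± 0.29 (adjusted p = 0.925). Cxcr4 had 613, 591 and 604 CPM with GM-CSF, against 684, 656 and 618 CPM untreated. It was the 1 of 10 receptors lower without overlap, where 7.19% of all genes were, at -0.11 ± 0.08 (adjusted p = 0.975). The difference of the effect from wild type had 0 of 10 receptors called by the 3 tools and 0% of all genes by edgeR. Of the 10 receptors C5ar1 alone had an unadjusted p under 0.05 there (0.71 ± 0.34, unadjusted p = 0.0461, adjusted p = 0.987). So had 375 of all 11885 genes.

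Against wild type, libraries labelled Irf5-/- had 0 of 10 receptors called by edgeR, DESeq2 or limma-voom in either condition, where edgeR called 0.0337% of all genes in each. For all genes this depends on the fit, with 4 called untreated and 562 when it held no other groups, and 4 called with GM-CSF and 30 without the 5 libraries that lay apart, while the receptors called stayed at 0. In untreated cells 1 of 10 had an unadjusted p under 0.05, C5ar1, and with GM-CSF 0 did. Of all 11885 genes 1668 did untreated and 173 with GM-CSF. C5ar1 had 4.00, 3.49 and 4.77 CPM in untreated libraries labelled Irf5-/-, against 5.16, 7.75 and 7.78 CPM in untreated wild-type libraries. The groups did not overlap, as for 14.6% of all genes in the lower direction, and the value was -0.74 ± 0.24 (adjusted p = 0.285). With GM-CSF C5ar1 averaged 5.09 ± 0.83 CPM in libraries labelled Irf5-/-, against 5.20 ± 0.592 CPM in wild type.

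Across all 8 groups the receptors differed in how far their means spread. The ratio of the highest to the lowest group mean was 4.00 for Fpr1, 3.39 for C5ar1, 2.51 for Fpr2, 1.90 for Cxcr2 and 1.72 for Ccr3, and 1.13 to 1.29 for the other 5. A Csf2ra-/- group was lowest for 8 of the 10 receptors. The exceptions were Cxcr2, lowest in untreated wild type, and Ltb4r1, lowest in wild type with IL-10. Untreated wild type was highest for Ccr3, Cxcr4 and C5ar1, and untreated cells labelled Irf5-/- for Ccr1, C3ar1 and Ptafr. When the groups were put in order of their means, neighbours overlapped in range at every step for 8 receptors. The exceptions were C5ar1, where untreated cells labelled Irf5-/- (3.49 to 4.77 CPM) lay apart from untreated Csf2ra-/- cells (1.36 to 2.71 CPM), and Fpr2, where wild type with IL-10 (2.48 to 3.27 CPM) lay apart from Csf2ra-/- cells with GM-CSF (0.602 to 2.44 CPM).

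Ltb4r1, the leukotriene B4 receptor, had the smallest ratio, at 166 to 231 CPM over all 24 libraries. Ccr1 ran from 246 to 410.1 CPM, C3ar1 from 57.3 to 114 CPM and Ptafr from 56.4 to 118 CPM. The median SD within a group of 3 was 12.4% of the mean for Ccr1, 17.3% for C3ar1 and 18.7% for Ptafr, against 7.36% for Ltb4r1 and 4.75% for Cxcr4. Ptafr had 88.3, 118 and 76.6 CPM in the 3 wild-type GM-CSF libraries and 71.0, 75.1 and 113 CPM in those with both cytokines. The high library of each of these groups was one of those that lay apart, and it was also the highest of its group for C3ar1, at 114 and 111 CPM.

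Ccr1, Ccr3, Cxcr2, C3ar1 and Ptafr varied together within groups. Each of the 5 libraries counted as lying apart was the lowest or the highest of its group for all of these genes. Untreated replicate 1 labelled Irf5-/-, not counted among them, was highest of its group for Ccr1, Ccr3, Cxcr2 and C3ar1. For Ptafr it lay between the others, at 107 CPM against 88.9 and 110 CPM. With each group's mean removed, the Pearson r of log2 CPM over the 24 libraries was 0.92 for Ccr1 and C3ar1, 0.90 for Cxcr2 and C3ar1, 0.88 for C3ar1 and Ptafr and 0.83 for Ccr3 and Cxcr2. Without removing the means Ccr3 and Cxcr2 had an r of 0.04. The other 5 receptors had within-group r to C3ar1 of 0.27 for C5ar1, 0.11 for Ltb4r1, -0.009 for Fpr1, -0.185 for Fpr2 and -0.275 for Cxcr4. Their r to any gene of the set reached 0.43, for C5ar1 with Ccr3, and -0.56, for Cxcr4 with Ptafr. The lowest r inside the set was 0.54, for Ccr3 and Ptafr. Among the other 5 receptors are the 3 with the widest spread within groups, Fpr2, Fpr1 and C5ar1. Their median SD was 26.9%, 26.0% and 19.2% of the mean, and they also have the lowest counts. The libraries share 1 culture scheme, differ in depth and may share cultures, and these r are a description of them without a test. How far the r rest on the libraries that lay apart was not tested.

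**Figure D4:**
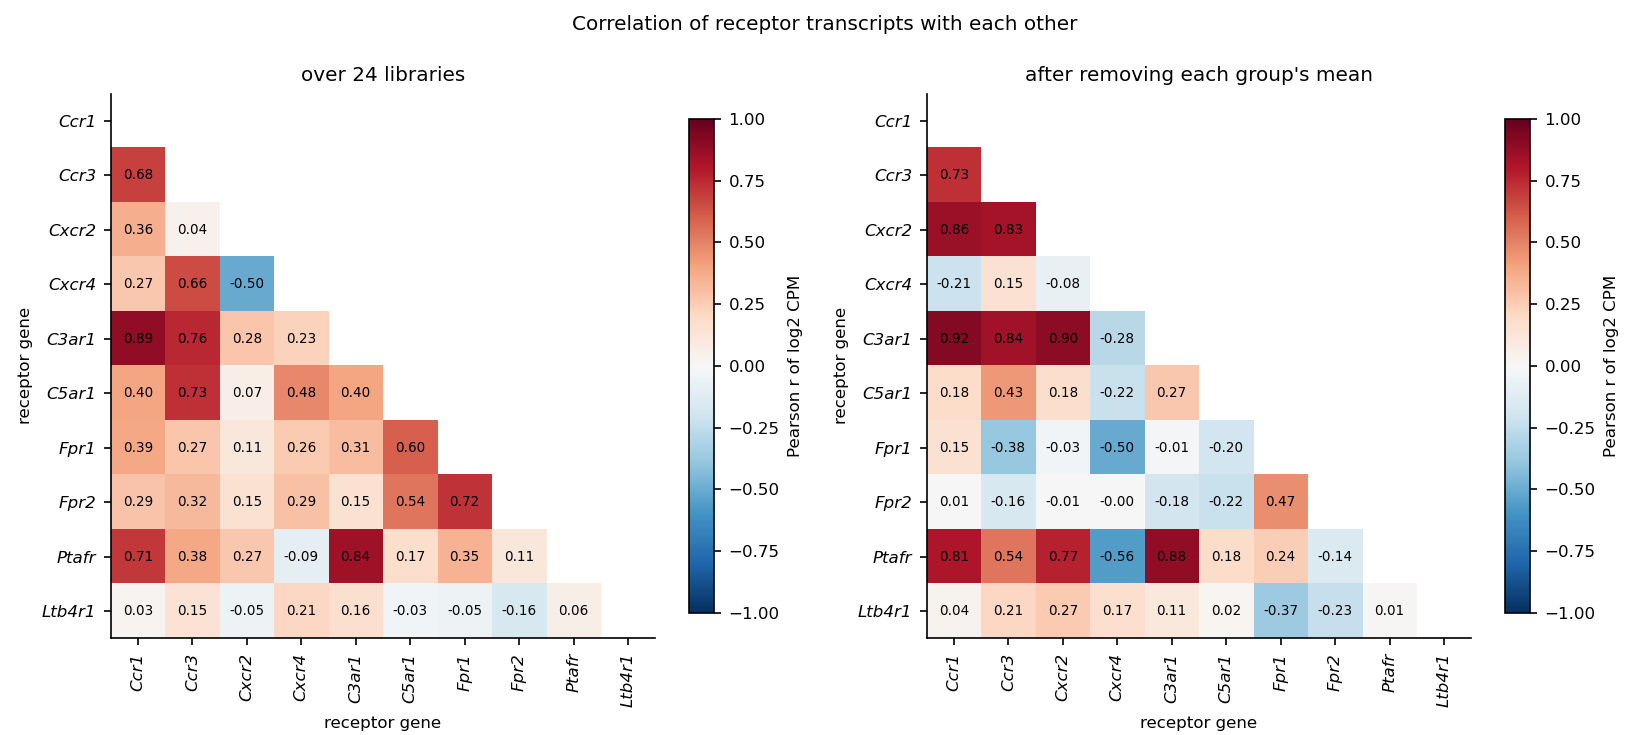
Pearson r of log2 CPM between each pair of receptor genes, over 24 libraries (left) and with each group's mean removed (right). Ccr1, Ccr3, Cxcr2, C3ar1 and Ptafr have within-group r of 0.54 to 0.92 with each other, and C5ar1, Fpr1, Fpr2, Cxcr4 and Ltb4r1 lie outside that set. The 5 libraries counted as lying apart were the lowest or highest of their group for every gene of the set.

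The 3 genes most like each receptor over the 24 libraries, among 9093 or 9094 genes with a mean of at least 5 CPM, differed by receptor. Fpr1 was most like S100a9, S100a8 and Mmp9, with r of 0.88, 0.84 and 0.84, and 0.48, 0.51 and 0.62 with the group means removed. Fpr2 was most like Lcn2, Clec4d and Mmp9, with 0.83, 0.83 and 0.80, and 0.64, 0.79 and 0.59 within groups. S100a8, S100a9 and Mmp9 are among the neutrophil markers counted above. C5ar1 was most like Cd36, Rell1 and Atp6v0d2, with 0.94, 0.93 and 0.90, and 0.63, 0.78 and 0.465 within groups. For these 3 receptors, Cxcr2 and Cxcr4 the within-group values were lower throughout. Cxcr2 came with D10Wsu102e, Ggh and Plscr1 at 0.82, 0.81 and 0.80, and 0.62, 0.78 and 0.54 within groups. Ptafr was most like Myo1d, Nfam1 and Cnr2 (0.96, 0.95 and 0.94), and within groups all 3 were at 0.97 or 0.975. C3ar1 was most like Tlr13, Klf6 and Aldh3a2 (0.94, 0.94 and 0.93; 0.97, 0.945 and 0.94 within groups), and Ccr1 like Serpinb2, Gpr65 and C3ar1 (0.93, 0.89 and 0.89; 0.94, 0.87 and 0.92 within groups). Ccr3 was most like Ap1s2, Sh3kbp1 and Chpt1 (0.92, 0.90 and 0.90; 0.86, 0.765 and 0.90 within groups), and Cxcr4 like Lpar6, Pbld1 and Tmcc1 (0.90, 0.88 and 0.87; 0.81, 0.56 and 0.69 within groups). Ltb4r1 came with Coro1a, Yipf3 and Atox1 (0.87, 0.865 and 0.85; 0.90, 0.89 and 0.95 within groups).

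Genes of several chemoattractant ligands changed in the same comparisons. Of 27 ligand and ligand synthesis genes 18 were tested, and with GM-CSF in wild type 4 were higher and 0 lower, both without and with IL-10, where 0.555% and 0.858% of all genes were called. Ccl4, a chemokine for monocytes and lymphocytes, averaged 46.5 ± 8.21 CPM with GM-CSF, against 6.49 ± 2.15 CPM untreated. Ccl24, an eotaxin and ligand of CCR3, averaged 11.3 ± 4.14 CPM with GM-CSF, against 1.44 ± 0.358 CPM untreated. Cxcl2, a ligand of CXCR2, averaged 31.8 ± 5.40 CPM with GM-CSF, against 14.15 ± 1.41 CPM untreated. Ccl3, a ligand of CCR1, averaged 71.7 ± 6.12 CPM with GM-CSF, against 43.45 ± 7.12 CPM untreated. Ccl24 was also the 1 ligand higher with IL-10, where 0.0505% of all genes were called in each arm, at 11.25 ± 1.64 CPM, against 1.44 ± 0.358 CPM untreated, and at 44.5 ± 17.3 CPM with both cytokines, against 11.3 ± 4.14 CPM with GM-CSF. In Csf2ra-/- cells 8 of 18 were lower and 1 higher in each condition, where 5.32% of all genes were lower untreated and 2.89% with GM-CSF. The median log2 fold change of the 18 was -0.82 untreated and -0.86 with GM-CSF, against 0.003 and -0.003 for all genes. Lpcat1, an enzyme that makes platelet-activating factor, Ccl9, Ppbp and C3 led the untreated falls by adjusted p, and Ccl4, Ccl2, Ccl24 and Cxcl2 those with GM-CSF. Lpcat1 was low, at 2.02 CPM in untreated Csf2ra-/- cells, against 5.22 CPM in wild type. Lpcat2, of the same family and list, had 237.1 CPM, against 207.5 CPM, and was not called. It was named after its values were seen. Lta4h, the enzyme that makes leukotriene B4, was the 1 higher, at 0.31 ± 0.07 untreated and 0.29 ± 0.07 with GM-CSF, and was named after its values were seen. With GM-CSF in cells labelled Irf5-/- 3 were higher, Ccl4, Ccl24 and Ccl2, where 0.353% of all genes were called.

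Other chemoattractant receptors were called mostly in the Csf2ra-/- comparisons. Of 17 tested, 7 were lower and 1 higher in untreated Csf2ra-/- cells, where 5.32% of all genes were lower and 10.8% called, with a median log2 fold change of -0.39, against 0.003 for all tested genes. Ccr2, a receptor of monocytes for CCL2 and itself one of the monocyte markers, averaged 6.06 ± 1.15 CPM in untreated Csf2ra-/- cells, against 26.0 ± 1.71 CPM in wild type (-2.12 ± 0.28). Gpr183, an oxysterol receptor (-0.73 ± 0.14), S1pr1 (-1.68 ± 0.45) and Cysltr1, a cysteinyl leukotriene receptor (-1.58 ± 0.43), were the next by adjusted p. S1pr1 was low, at 0.34 CPM against 1.03 CPM in wild type, from 13 and 42 counts in all. Cysltr1 was low too, at 0.98 CPM against 3.00 CPM, from 42 and 119 counts. Hrh4, a histamine receptor of eosinophils, was the 1 higher (1.21 ± 0.38) and was named after its value was seen. With GM-CSF 5 were lower and 0 higher, where 2.89% of all genes were lower and 3.79% called, led by Ccr2, Gpr183, Ccr7 and Cysltr1. With GM-CSF alone in wild type 1 of the 17 was lower, where 0.555% of all genes were called. It was Cx3cr1, the fractalkine receptor and a monocyte marker (-3.06 ± 0.66). Its level was low, at 0.21 CPM with GM-CSF and 1.87 CPM untreated, from 11 and 78 counts in all. With GM-CSF in cells labelled Irf5-/- 1 of the 17, Ccr2, was higher (1.24 ± 0.26), where 0.353% of all genes were called. In the IL-10 effect averaged over both arms 1 of the 17 was higher, where 0.345% of all genes were called. It was Gpr35, a receptor that answers kynurenic acid, at 3.78 CPM with IL-10, against 1.68 CPM without (1.17 ± 0.23, adjusted p = 0.0201 by edgeR), and it was also among those lower in Csf2ra-/- cells in both conditions.

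The machinery behind the receptors was called at shares near those of all genes in untreated Csf2ra-/- cells, where 10.8% of all genes were called and 5.32% were lower. Of 22 genes that carry receptor signals to migration, 1, Prex1, a Rac activator, was lower in untreated Csf2ra-/- cells (-0.37 ± 0.11). In the averaged GM-CSF effect 1 of the 22 was higher, Gna15 (0.29 ± 0.07), and 1 lower, Gng2 (-0.36 ± 0.09). Of all genes 2.54% were called there and 1.86% were higher. Both are G protein subunits named after their values were seen. Of 14 desensitisation genes, which switch receptors off, 2 were lower untreated and 1 with GM-CSF, where 5.32% and 2.89% of all genes were lower. Grk5, a receptor kinase, was lower in Csf2ra-/- cells untreated (-0.86 ± 0.23) and with GM-CSF (-0.89 ± 0.22). Arrb1, an arrestin, was lower untreated (-0.47 ± 0.12).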

How the data were processed

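RNA of 24 libraries in 8 groups of 3 was prepared as stranded mRNA libraries, per the labels' protocols. Each deposited file gives whole read counts by Ensembl gene. STAR, featureCounts and the build GRCm38.p6 are named in the submitters' processing notes, and their versions, the strand setting and the treatment of multi-mapped reads were not given in the sources used here. Symbols, coordinates and exon lengths came from GENCODE release M21 on GRCm38, and 34 IDs without a symbol held 0.0189% of the counts.

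Counts were scaled by TMM in edgeR 4.0.16 (factors 0.939 to 1.031) on R 4.3.3, and edgeR's filterByExpr kept 11885 genes. All 24 libraries entered one robust quasi-likelihood model in edgeR with a mean for each of 8 groups, from which 15 contrasts were tested. Calls needed an adjusted p (Benjamini-Hochberg) under 0.05 over all 11885 genes. Folds are log2 with SE, and 95% intervals use a median of 21.9 degrees of freedom. RPKM divides TMM-scaled CPM by the exon length, and promoters came from RefSeq's GRCm38.p6 table. Replicate numbers follow the order of the deposit and were not used to pair libraries. No replicate pair was identical. The fitting steps were tested on simulated data for the GM-CSF contrast without IL-10 in wild type. Of 100 genes changed 2-fold 95 were called, and of 100 changed 4-fold all were. The changed genes were drawn from those with a mean of at least 5 CPM. C5ar1, Fpr1 and Fpr2 averaged 4.58, 3.11 and 2.82 CPM, so recovery at their levels was not tested. Changes under 2-fold were not simulated. In the same run 14 unchanged genes were called.

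Alternatives were relative log expression scaling, DESeq2 1.42.0, limma-voom (limma 3.58.1), no or a stricter low-count filter, only the groups compared, the level of 4 Y-linked genes as a covariate, each library left out in turn and, chosen after seeing the data, 4 or 5 libraries that lay apart left out together. The named genes were all 10 members, at most 4 called genes per other list and comparison by adjusted p, the 4 other receptors highest per length and the 3 genes most like each member. The members and lists were chosen with earlier results of these data known. The values of 1 marker gene are not reported here.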

Additional observations from a re-analysis of the deposited data

How the results depend on the processing

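No paired analysis was run, since the labels give the groups no shared replicate numbers. In cells labelled Irf5-/- the Y-linked sums of replicates 1, 2 and 3 kept their order between arms. Untreated libraries had 178.1, 12.14 and 39.34 CPM, against 163.2, 13.18 and 44.01 CPM in those given GM-CSF. Wild-type order differed, with replicate 2 at 58.21 CPM untreated, against 176.2 CPM with GM-CSF. Whether libraries of different groups share a source, and what a paired fit would give, was not tested. Of 120 counts of called receptors with 1 library left out, 114 were within 1.5 times the value reported, and of 130 under the other settings 121 were. In most contrasts 0 receptors were called, so most of these counts compare 0 with 0 and say little about stability. No call changed sign. In untreated Csf2ra-/- against wild type, the 2 calls became 4 in the fit with the Y-linked genes and 4 without 4 or 5 of the libraries that lay apart, 1 when the fit held no other groups, and 1 to 3 with 1 library left out. In the GM-CSF effect averaged over both wild-type arms, the 1 call became 2 with DESeq2 and 1 to 2 with 1 library left out. In the IL-10 effect without GM-CSF, the 0 calls became 1 when the fit held no other groups. In the averaged IL-10 effect they became 1 with DESeq2, 1 without 4 or 5 of the libraries that lay apart and 0 to 1 with 1 library left out. The number of all genes called moved more. In untreated Csf2ra-/- against wild type the 1288 became 199 when the fit held no other groups, 753 in the fit with the Y-linked genes, 291 without wild-type replicate 2, 520 without wild-type replicate 3, 359 without Csf2ra-/- replicate 1, 2620 without Csf2ra-/- replicate 2, and 2729 and 2778 without 4 and 5 of the libraries that lay apart. With GM-CSF the 451 became 199 when the fit held no other groups, 296 and 260 without wild-type replicates 1 and 3, 300 and 222 without Csf2ra-/- replicates 1 and 2, and 1367 and 1516 without the 4 and the 5. In the averaged GM-CSF effect the 302 ran from 188 with 1 library left out to 471 with DESeq2, and in the averaged IL-10 effect the 41 ran from 26 with 1 library left out to 89 with DESeq2. The cause of these shifts was not tested. Of 217 single-receptor values under alternatives, 195 kept their side of the threshold, 17 moved past it and 5, all Ccr3 in untreated Csf2ra-/- cells, moved back over it. Depth limits Fpr1, Fpr2 and C5ar1, with as few as 14, 8 and 22 counts per library.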
